A study of Mus musculus with 20 samples.

Results

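The genes described here are Lingo1 and the Nogo receptor family, 10 of the 20972 gene symbols that the array carries. Members were taken by name: every probe whose RefSeq transcript belongs to Lingo1, Lingo2, Lingo3, Lingo4, Rtn4, Rtn4r, Rtn4rl1, Rtn4rl2, Omg or Tnfrsf19. That gave 11 probes, 1 for each gene and a pair for Tnfrsf19. Lingo1 was chosen because it stands on the study's list of genes that differ between Tat+/Sal and Tat-/Sal mice, so its values in that contrast are given as a description with no test. The other members were chosen for their place in the same receptor system.

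The study asked how the HIV-1 protein Tat and repeated methamphetamine (Meth), alone and together, change gene expression in the mouse brain. Brain RNA from 20 male C57BL/6J mice was hybridised to 1-colour Agilent arrays, 1 array per mouse and 5 per group. By the labels the mice were 6 to 7 weeks old, and the methods give an older age. Every mouse, controls included, received doxycycline at 100 mg/kg for 7 days and carried the Tet-binding protein under the GFAP promoter, which is active in astrocytes. Tat+ mice also carried the Tat transgene that doxycycline switches on, and Tat- mice lacked it. The Tat-/Meth group (Tat-Meth+ in the labels) and the Tat+/Meth group (Tat+Meth+) received Meth at 2 mg/kg for 7 days. The Tat-/Sal group (Tat-Meth-) and the Tat+/Sal group (Tat+Meth-) received saline. The labels name the left hemisphere of perfused brain taken 24 h after the last injection, whereas the methods name the caudate putamen, taken after abstinence and a Meth challenge that all mice received. All 9 striatal markers checked, such as Drd1 and Ppp1r1b, were well above background on every array, against 2 of the 4 cortical markers tested.

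Nogo-A, made from Rtn4, and oligodendrocyte myelin glycoprotein, made from Omg, sit on myelin and on some neurons and restrain the growth of axons and the remodelling of synapses. They bind the Nogo receptor Rtn4r, which has no part inside the cell and passes the signal through Lingo1 together with Ngfr or Tnfrsf19 (TROY) to the small GTPase RhoA and the actin cytoskeleton. Lingo1 is a transmembrane protein with leucine-rich repeats that is found mainly on neurons and that also holds back the maturation of oligodendrocytes. Lingo2, Lingo3 and Lingo4 are its paralogs, and Rtn4rl1 and Rtn4rl2 are the paralogs of Rtn4r.

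The arrays lay on 3 slides. Slide 1 held the 5 Tat-/Meth arrays and no others, slide 2 held the 5 Tat-/Sal arrays with 3 Tat+/Meth arrays, and slide 3 held the other 2 Tat+/Meth arrays with the 5 Tat+/Sal arrays. In every comparison with Tat-/Meth, group and slide 1 cannot be told apart. The bright corner control spots, which do not depend on mouse RNA, read 16.80 to 17.42 on slides 2 and 3 and 14.66 to 15.06 on slide 1 (log2). Between 55.4% and 70.8% of the probes of an array were well above background. Values below are log2 signals after every array had been brought to a common 75th percentile. They compare arrays for 1 probe and not 1 gene with another. A member "passed" at a limma adjusted p under 0.05 over the 15102 genes tested. All 10 members were bright enough to be tested, Rtn4rl2 through its level in the 3 groups other than Tat-/Meth.

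Lingo1 and Rtn4rl2 were the members with changes above 2-fold, and their promoter sequences are shown so that the start sites of the transcripts concerned can be found. RefSeq (GRCm38.p6) gave promoter windows for 8 of the 10 members, 14 windows in all, each running from 250 bases before a transcript start to 50 bases after it. No window was found for Rtn4rl1 and Omg. The 250 bases before each start of Lingo1 and Rtn4rl2 are printed 5′ to 3′ on the strand of the gene, with each GC box in capitals (the letters GGGCGG, or CCGCCC on the opposite strand).

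Lingo1, first window (chr9:56635649-56635898, minus strand): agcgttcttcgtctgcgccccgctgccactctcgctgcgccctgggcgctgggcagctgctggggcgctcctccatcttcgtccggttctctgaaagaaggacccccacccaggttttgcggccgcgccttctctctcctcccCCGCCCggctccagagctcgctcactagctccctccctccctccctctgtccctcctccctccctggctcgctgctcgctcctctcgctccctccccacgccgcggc
Lingo1, second window (chr9:56796311-56796560, minus strand): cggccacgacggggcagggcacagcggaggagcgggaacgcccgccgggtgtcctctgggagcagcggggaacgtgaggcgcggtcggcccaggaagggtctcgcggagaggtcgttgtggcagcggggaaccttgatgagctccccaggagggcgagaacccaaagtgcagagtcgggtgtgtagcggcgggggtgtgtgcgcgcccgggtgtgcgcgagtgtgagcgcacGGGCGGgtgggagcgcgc
Rtn4rl2 (chr2:84886693-84886942, minus strand): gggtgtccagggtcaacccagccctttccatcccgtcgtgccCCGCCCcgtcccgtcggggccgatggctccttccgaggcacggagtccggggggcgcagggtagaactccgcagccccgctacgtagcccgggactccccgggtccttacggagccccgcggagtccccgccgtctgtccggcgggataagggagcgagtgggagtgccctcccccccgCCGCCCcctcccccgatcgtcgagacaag

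All 3 stretches are rich in G and C (70.4% and 72.8% for Lingo1, 73.6% for Rtn4rl2) against a median of 52.7% over all 32851 windows of the full length. A GC box was found in 8 of the 14 member windows and in 35.7% of all windows. The letters TATAAA, searched on both strands, were in 0 of the 14 member windows and in 13.6% of all windows. A match is a description of the letters and not evidence of a bound factor.

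The level of Lingo1 differed between groups, whose arrays lay largely on different slides. On the 5 Tat-/Sal arrays its signal was 10.52, 10.29, 10.27, 10.49 and 10.41. On the 5 Tat+/Sal arrays it was 9.68, 9.55, 9.26, 9.40 and 9.42, so that no array of either saline group reached into the other. On the 5 Tat-/Meth arrays it was 8.0, 8.17, 8.03, 9.19 and 8.41. These were all below the lowest array of the other 3 groups, although replicate 4 at 9.19 came close to the lowest Tat+/Sal array.

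The Tat+/Meth arrays of Lingo1 split by slide. The 3 arrays on slide 2 read 10.28, 10.28 and 10.40, within the range of the Tat-/Sal arrays that shared their slide. The 2 arrays on slide 3 read 9.62 and 9.71, just below and just above the highest of the Tat+/Sal arrays on that slide. The means of the groups ran in the order Tat-/Sal (10.40 ± 0.12, SD, n = 5), Tat+/Meth (10.06 ± 0.36), Tat+/Sal (9.46 ± 0.16) and Tat-/Meth (8.36 ± 0.49). The neighbours Tat-/Sal and Tat+/Meth overlapped, as did Tat+/Meth and Tat+/Sal, and Tat+/Sal and Tat-/Meth did not.

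**Figure D1:**
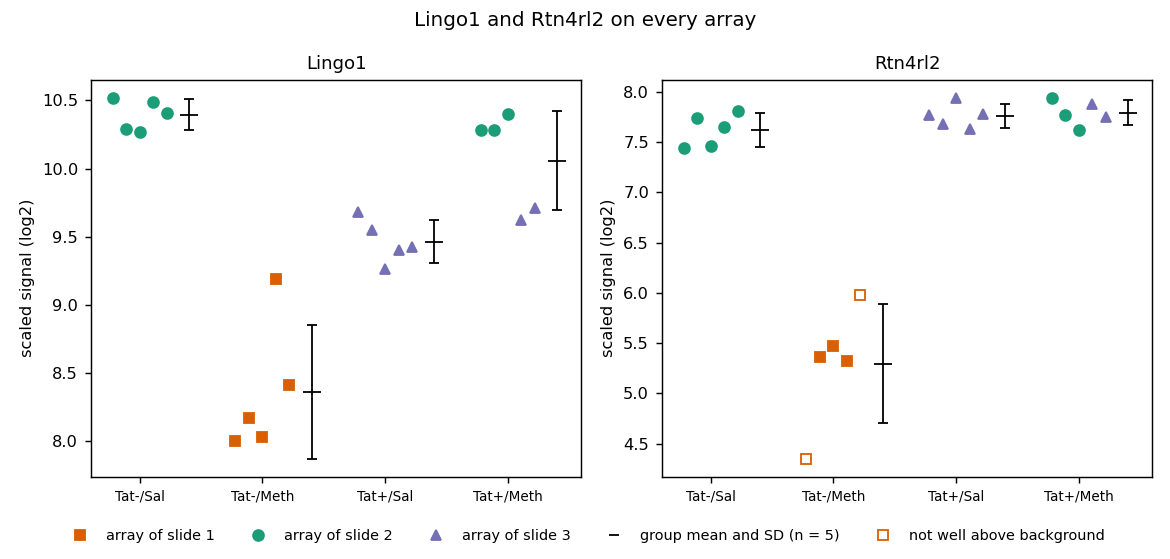
Scaled log2 signal of Lingo1 (left) and Rtn4rl2 (right) on each of the 20 arrays, by group on the horizontal axis, with colour and shape for the slide and a bar for the group mean and SD (n = 5). The Tat+/Meth arrays of Lingo1 fall at 10.28 to 10.40 on slide 2 and at 9.62 and 9.71 on slide 3, whereas for Rtn4rl2 only the 5 Tat-/Meth arrays stand apart, at 4.35 to 5.98.

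Lingo1 was lower in Tat+/Sal than in Tat-/Sal mice by 0.94 on the log2 scale (the difference was -0.94, 95% interval -1.34 to -0.53), a 1.91-fold difference. This is the contrast it was chosen from, and it is also a contrast of slide 3 with slide 2. At least as low a value in that contrast was found for 25 of the 15102 genes. The interval and this rank describe a gene chosen for its low value here, and they test nothing. Within Tat+/Meth, a group of mice under 1 treatment, Lingo1 differed between slide 3 and slide 2 by -0.65 (95% interval -1.15 to -0.15), with no overlap between the 2 and the 3 arrays. That difference had an unadjusted limma p of 0.0137 and an adjusted p of 0.999. No gene passed between the slides within Tat+/Meth (0% of 15102 in limma), while 612 genes had an unadjusted p under 0.05. A difference at least as large as that of Lingo1 in either direction was found for 370 genes (2.45%).

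With slide as a fixed block, the difference of Lingo1 between Tat+/Sal and Tat-/Sal was -0.28 (95% interval -0.89 to 0.33), an estimate that rests on the Tat+/Meth arrays as the link between the slides. Within slide 2, the 3 Tat+/Meth arrays differed from the 5 Tat-/Sal arrays in Lingo1 by -0.08 (95% interval -0.26 to 0.10, limma adjusted p = 0.755). Within slide 3, the 2 Tat+/Meth arrays differed from the 5 Tat+/Sal arrays by 0.20 (95% interval -0.08 to 0.49, limma adjusted p = 1). Over both slides the corresponding differences were -0.34 and 0.60, neither of which passed (limma adjusted p of 0.662 and 0.246). Each of these comparisons shares a saline group with the contrast that Lingo1 was chosen from.

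Of the other members, Lingo2 was also lower on slide 3 within Tat+/Meth, and none passed between the saline groups. In Tat+/Sal against Tat-/Sal, 0 of the 9 other members passed, where 1.42% of all genes did in limma, and 1 of these 9 had an unadjusted p under 0.05. That was Lingo3, at a difference of 0.30 (95% interval 0.11 to 0.49, limma adjusted p = 0.0869). The saline groups did not overlap for 0 of the 9 other members, where 4.85% of all genes did not overlap. They did not overlap for Lingo1 either, but it was chosen from this contrast, so that is a description only. Between the slides within Tat+/Meth, 3 of the 10 members did not overlap, where 20% of all genes did not. They were Lingo1, Lingo2 at -0.30 (95% interval -0.53 to -0.07, unadjusted limma p of 0.0127) and Tnfrsf19 at 0.19 (-0.09 to 0.47), and none passed. For Lingo2 the Tat+/Meth arrays read 9.70, 9.82 and 9.90 on slide 2 and 9.32 and 9.69 on slide 3. Between the saline groups Lingo2 differed by -0.15 (95% interval -0.34 to 0.04, limma adjusted p = 0.349).

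**Figure D2:**
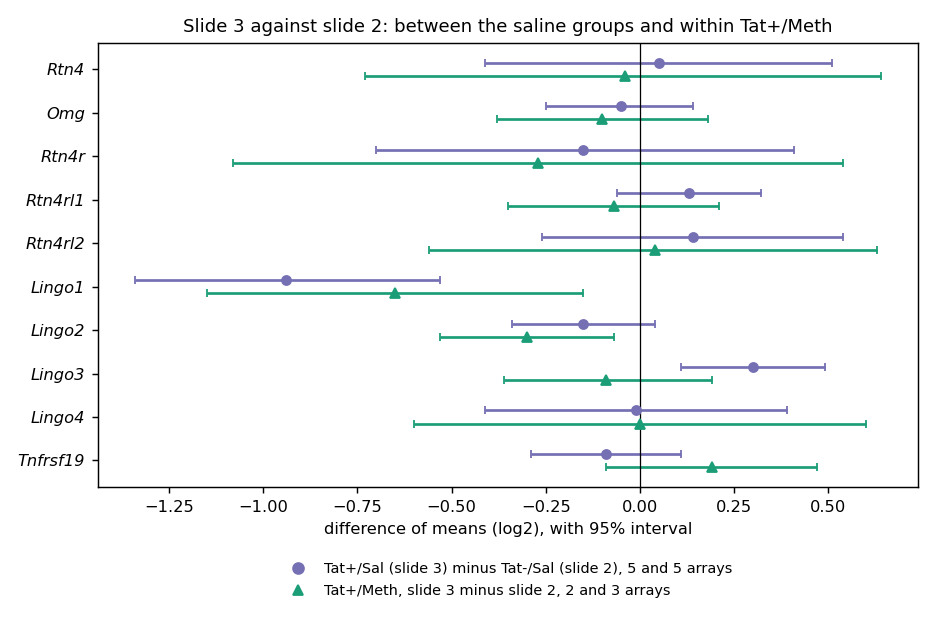
Difference of log2 signal with its 95% interval for each member between Tat+/Sal on slide 3 and Tat-/Sal on slide 2 (circles, 5 and 5 arrays) and between the slide 3 and slide 2 arrays of Tat+/Meth (triangles, 2 and 3 arrays). Lingo1 lies at -0.94 and -0.65, and the other members lie between -0.30 and 0.30 in both.

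The genes whose pattern over the 15 arrays outside slide 1 was most like that of Lingo1 were Cox17 (Pearson r = 0.968), Abhd3 (0.967), Cbx7 (0.954), Stam2 (0.946) and Aff4 (0.944). Over all 20 arrays they were Cbx7 (0.957), Kpna4 (0.951), Aff4 (0.947), Ndfip2 (0.945) and Bex6 (0.937). The arrays share groups and slides, so these coefficients describe likeness and carry no p. Cbx7 stands on the same list of the study that Lingo1 was chosen from. So does an entry printed there as Cox7B but named as a subunit XVII assembly protein. Likeness among genes of that list is favoured by the choice. Cox17, a copper chaperone for cytochrome c oxidase, read 8.81 to 9.20 on the Tat-/Sal arrays and 7.61 to 7.94 on the Tat+/Sal arrays. Its Tat+/Meth arrays read 8.85 to 9.01 on slide 2 and 7.97 to 8.02 on slide 3. Cbx7, a subunit of Polycomb complexes, read 9.46 to 9.59 and 8.65 to 8.70 on the same arrays. The differences between slide 3 and slide 2 within Tat+/Meth were -0.95 for Cox17, -0.66 for Abhd3, -0.87 for Cbx7, -0.12 for Stam2 and -0.28 for Aff4. These genes were picked for likeness to Lingo1 over arrays that include these, so the shared direction is not a finding. No other member was near the top of that ranking: the nearest outside slide 1 was Lingo2, at rank 688 of 15064 genes (r = 0.664).

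Between Tat-/Meth and Tat-/Sal mice, the study's test of Meth, 7 of the 10 members passed, 4 higher and 3 lower in Tat-/Meth. Of all genes 50.2% passed in limma, 35% higher and 15.3% lower. Lingo1, Rtn4rl2 and Rtn4r fell, and Lingo4, Omg, Rtn4rl1 and Lingo2 rose. The groups did not overlap for 6 of the members, where 36.2% of all genes did not overlap. The median difference was 0.21 over the members and 0.14 over all genes. In bulk tissue, fewer cells of a type and less RNA per cell cannot be told apart. This contrast shares its Tat-/Sal arrays with the one that Lingo1 was chosen from.

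Rtn4rl2 codes for a receptor of myelin-associated glycoprotein and is a paralog of the Nogo receptor. On the Tat-/Meth arrays it read 4.35, 5.36, 5.47, 5.32 and 5.98, and replicates 1 and 5 were not well above background. On the Tat-/Sal arrays it read 7.44, 7.74, 7.46, 7.65 and 7.81. The Tat+/Sal arrays read 7.77, 7.68, 7.94, 7.63 and 7.78, and the Tat+/Meth arrays read 7.94, 7.77 and 7.62 on slide 2 and 7.88 and 7.75 on slide 3. The 15 arrays outside slide 1 thus spanned 7.44 to 7.94 whatever the group, and every Tat-/Meth array lay below them. Against Tat-/Sal mice, Rtn4rl2 was lower in the Tat-/Meth group, with a log2 difference of -2.33 (95% interval -2.73 to -1.93, limma adjusted p = 1.61e-08). Its size is uncertain because the Tat-/Meth arrays read near background. With normexp background correction the difference was -1.32, smaller than the -1.84 of Lingo1 under that setting. The gene entered the test through its level in the other groups, and with no filter on signal its adjusted p was 6.39e-08.

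In the same contrast Lingo1 was 4.11-fold lower in Tat-/Meth mice (log2 difference -2.04, 95% interval -2.44 to -1.64, limma adjusted p = 9.91e-08). Lingo1 and Rtn4rl2 were the members that passed with a change above 2-fold in the lower direction, as did 6.48% of all genes.

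Rtn4r, the Nogo receptor itself, was also lower in Tat-/Meth. It read 6.71, 6.84, 6.71, 6.66 and 6.92 on those arrays and 7.49, 7.56, 7.36, 8.06 and 7.46 on the Tat-/Sal arrays. The groups did not overlap, and Rtn4r fell by 0.82 on the log2 scale (1.76-fold, limma adjusted p = 0.0152). Its Tat+/Sal arrays had the widest spread of any member and group, at 8.73, 7.26, 6.69, 7.03 and 7.49.

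The highest Rtn4r array of each saline group was also the array of its group with the highest summed signal of the cortical markers. These were Tat-/Sal replicate 4, with a summed log2 signal of 11.30, and Tat+/Sal replicate 1, with 11.02. All other arrays summed to between 8.50 and 10.37. Of the 4 cortical markers tested, Slc17a7 and Neurod6 were not well above background on every array. The part of cortical tissue in the level of Rtn4r was not tested. Without both arrays, which was tried after the data had been seen, Rtn4r was still lower in the Tat-/Meth group and passed.

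Among the ligands, Omg rose in Tat-/Meth and Rtn4 did not pass. Omg read 14.29, 14.08, 13.89, 14.04 and 14.11 on the Tat-/Meth arrays and 13.62, 13.67, 13.73, 13.58 and 13.77 on the Tat-/Sal arrays. Each Tat-/Meth array was thus above each Tat-/Sal array, by 0.41 on average (log2, 1.33-fold, limma adjusted p = 0.00115). Rtn4 read 14.63, 14.68, 14.61, 14.74 and 13.87 on the Tat-/Meth arrays and 14.26, 14.47, 14.21, 14.32 and 13.54 on the Tat-/Sal arrays. In both groups replicate 5 stood below the rest, and the difference of 0.35 was within the spread (95% interval -0.11 to 0.81, limma adjusted p = 0.198).

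Rtn4rl1, the other paralog of the Nogo receptor, rose in Tat-/Meth. It read 12.29, 12.29, 12.38, 12.43 and 12.29 there and 11.90, 11.99, 11.87, 12.00 and 12.15 in Tat-/Sal, with no overlap. The log2 difference was 0.36 (1.28-fold, limma adjusted p = 0.003). The call was lost with median scaling (0.48, limma adjusted p = 0.0515) and with normexp (0.23, 0.0543). The paralogs of Lingo1 all had differences above 0 in this contrast, as did the median of all genes (0.14). Lingo4 read 9.13, 8.33, 8.56, 8.43 and 8.35 on the Tat-/Meth arrays and 7.99, 7.76, 8.03, 8.05 and 7.26 on the Tat-/Sal arrays, and rose by 0.74 (1.67-fold, limma adjusted p = 0.00358) with no overlap.

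Lingo2 was 9.81 to 10.00 in Tat-/Meth and 9.61 to 9.86 in Tat-/Sal, and its difference of 0.23 passed narrowly (limma adjusted p = 0.035). The call was lost with median scaling, normexp, the authors' value table and no filter, and when any of Tat-/Meth replicates 1, 4 and 5 or Tat-/Sal replicates 1 to 4 was left out, with differences of 0.21 to 0.23 (limma adjusted p of 0.0537 to 0.0756). Lingo3 was 14.04 to 14.33 and 13.85 to 14.27 in the same groups, a difference of 0.20 (limma adjusted p = 0.0784). Tnfrsf19 did not pass with either probe. Its brighter probe was 12.65 to 12.92 in Tat-/Meth and 12.31 to 12.92 in Tat-/Sal, and its dimmer probe 6.87 to 8.52 and 6.92 to 7.10.

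**Figure D3:**
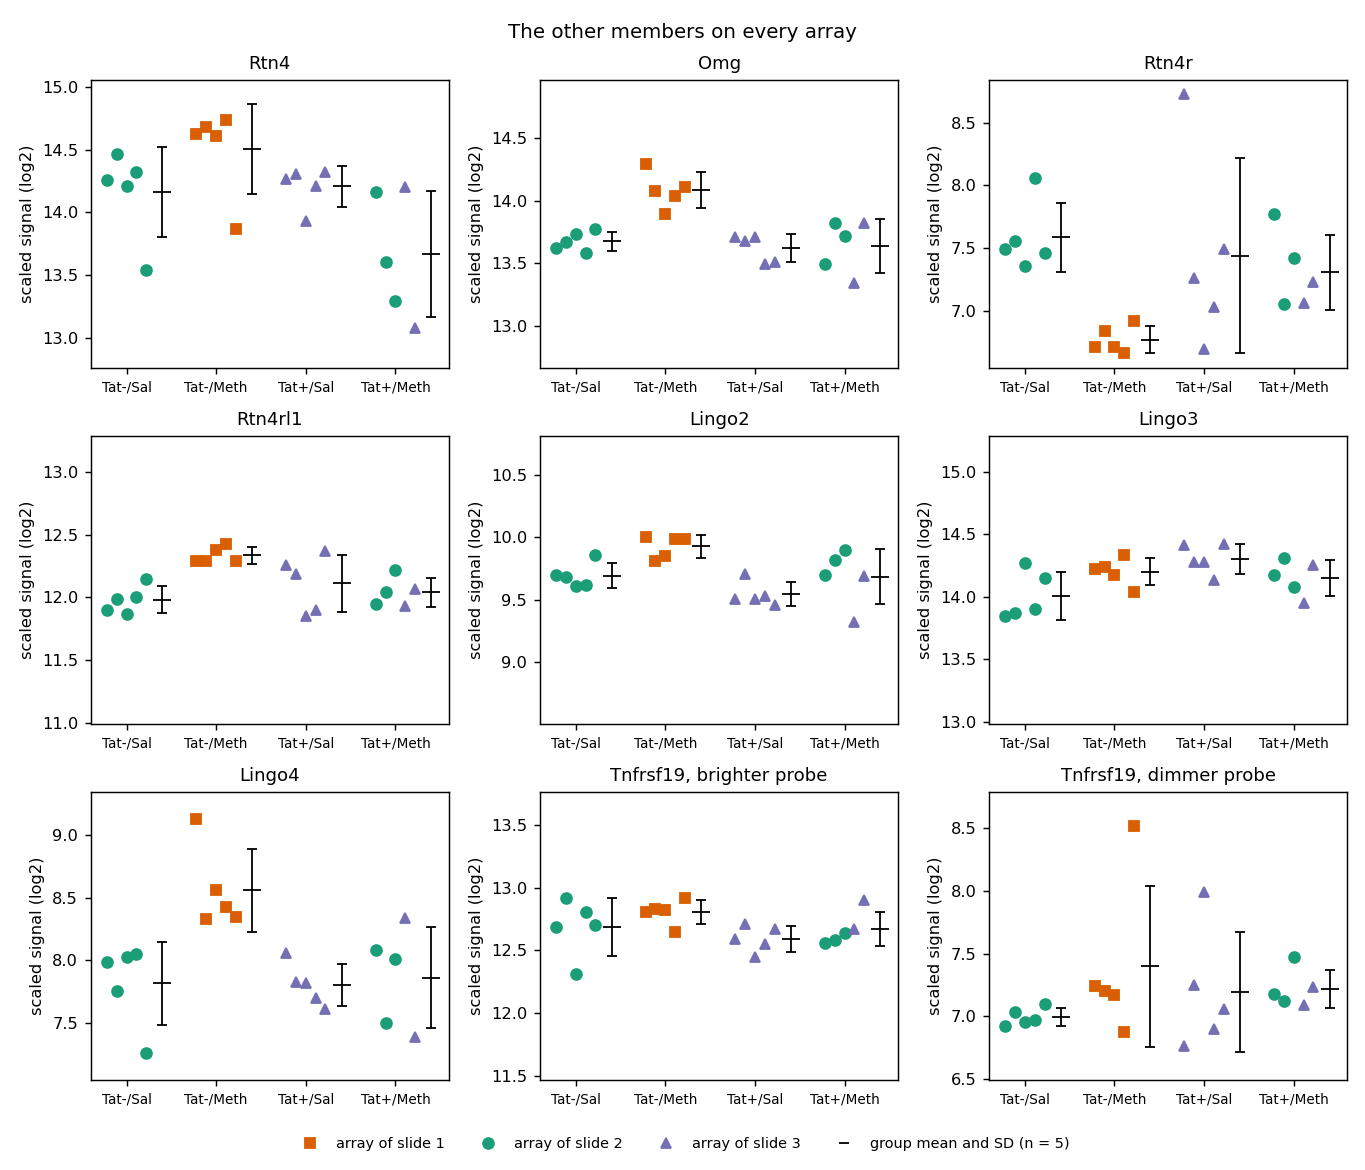
Scaled log2 signal of the other members on each of the 20 arrays by group, with colour and shape for the slide and a bar for the group mean and SD (n = 5); Tnfrsf19 has a panel for each of its probes. The Tat-/Meth arrays lie above the Tat-/Sal arrays without overlap for Omg, Rtn4rl1 and Lingo4 and below them for Rtn4r.

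Between Tat+/Meth and Tat-/Meth mice, the study's test of Tat under Meth, 7 members passed again, 5 lower and 2 higher in Tat+/Meth. Of all genes 54.4% passed in limma, 38.5% lower and 16% higher. Groups did not overlap for 5 members and for 38% of all genes, and the median difference was -0.19 over the members and -0.15 over all genes. This contrast shares the Tat-/Meth arrays with the previous one, so that the low or high level of those 5 arrays enters both. It shares no array with the contrast Lingo1 was chosen from.

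Rtn4rl2 was higher in Tat+/Meth, with a log2 difference of 2.50 (95% interval 2.10 to 2.90, limma adjusted p = 5.78e-09) against Tat-/Meth arrays near background. It was 1.42 with normexp background correction. The size is uncertain, and Rtn4rl2 entered the test through its level in the groups other than Tat-/Meth. With no filter on signal it also passed. Lingo1 was 3.25-fold higher (1.70, 95% interval 1.30 to 2.10, limma adjusted p = 8.7e-07). Both passed with a change above 2-fold in the higher direction, as did 6.75% of all genes. Rtn4r did not pass at a difference of 0.54 (limma adjusted p = 0.0907), although its Tat+/Meth arrays, at 7.05 to 7.77, were all above the Tat-/Meth arrays.

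Omg fell by 0.45 on the log2 scale (limma adjusted p = 0.000475), Lingo4 by 0.69 (0.00508) and Rtn4rl1 by 0.30 (0.00963), each a member that was raised in Tat-/Meth mice in the contrast before. The call of Rtn4rl1 was lost with median scaling (-0.45, limma adjusted p = 0.051) and with normexp (-0.19, 0.121), as was that of Lingo2. Rtn4 fell by 0.84 (1.79-fold, limma adjusted p = 0.00345). Its Tat+/Meth arrays read 14.16, 13.60 and 13.29 on slide 2 and 14.20 and 13.08 on slide 3, the widest spread of Rtn4 in any group, and overlapped the Tat-/Meth arrays through replicate 5 of that group at 13.87. Lingo2 fell by 0.24 (limma adjusted p = 0.0278). Besides median scaling and normexp, that call was lost with the authors' value table, only the groups compared and the methods' t-test after adjustment. It was also lost without Tat-/Meth replicate 1, 4 or 5 or without Tat+/Meth replicate 4, with differences of -0.23 to -0.15 (limma adjusted p of 0.0549 to 0.0836). Lingo3 differed by -0.05 and Tnfrsf19 by -0.14, and neither passed.

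**Figure D4:**
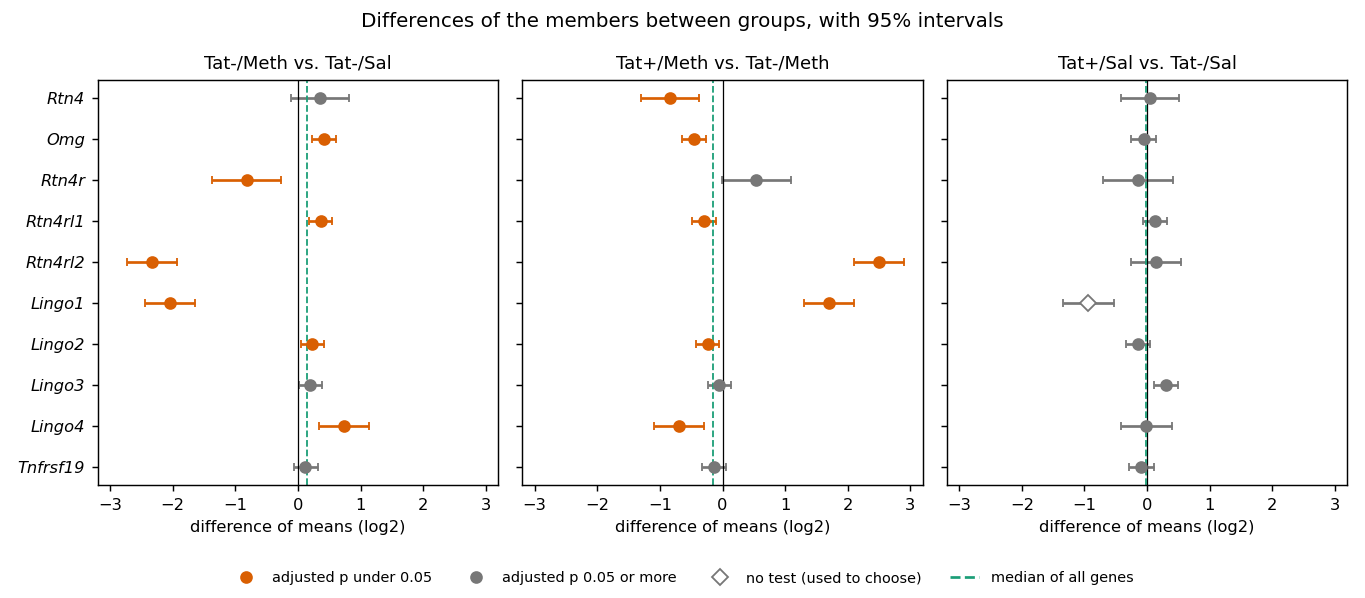
Difference of log2 signal with its 95% interval for the 10 members in the panels Tat-/Meth vs. Tat-/Sal (left), Tat+/Meth vs. Tat-/Meth (middle) and Tat+/Sal vs. Tat-/Sal (right), with filled orange points for members that passed, an open diamond for Lingo1 in the contrast it was chosen from, and a dashed line at the median of all genes. Rtn4rl2 and Lingo1 lie at -2.33 and -2.04 in the first panel and at 2.50 and 1.70 in the second.

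Neither Tat+/Meth vs. Tat+/Sal nor Tat+/Meth vs. Tat-/Sal gave a passing member, and 0% of all genes passed in either in limma. At an unadjusted limma p under 0.05 there were 1838 and 1177 of the 15102 genes. Rtn4 was among them in both contrasts, and Lingo1 in the first. That contrast holds the Tat+/Sal arrays of the contrast that Lingo1 was chosen from, so the place of Lingo1 there is not a finding. Rtn4 differed by -0.54 from Tat+/Sal (95% interval -1.0 to -0.08, limma adjusted p = 0.338) and by -0.50 from Tat-/Sal (-0.96 to -0.04, 0.64). Rtn4rl2 differed by 0.03 and 0.17 in these contrasts, with 95% intervals of -0.37 to 0.43 and -0.23 to 0.57.

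The interaction asks how far the response to Meth departed, in mice with Tat, from the response in mice without it. It passed for 5 of the 9 members other than Lingo1, 4 lower and 1 higher. Of all genes 36% passed, 23.6% lower and 12.4% higher. The estimate for Rtn4rl2 was 2.36 (limma adjusted p = 2.64e-06, and 1.31 with normexp). Its size is uncertain because its Tat-/Meth arrays read near background, and the gene entered the test through its level in the other groups. The other estimates were -0.89 for Rtn4 (limma adjusted p = 0.0319), -0.42 for Rtn4rl1 (0.0138), -0.39 for Omg (0.0235) and -0.35 for Lingo3 (0.0396). The calls of Rtn4rl1, Omg and Lingo3 were lost with median scaling and with normexp, and that of Rtn4 with normexp. That of Omg was also lost with the authors' value table, and that of Lingo3 with no filter. For Lingo1 the estimate was 2.64, and it carries no test because the interaction holds the contrast that Lingo1 was chosen from. The call of Rtn4 was lost without any of 9 arrays, namely Tat-/Meth replicates 1 to 4, Tat-/Sal replicate 5, Tat+/Meth replicates 3 and 5 and Tat+/Sal replicates 2 and 5 (estimates of -0.86 to -0.73). The call of Lingo3 was lost without any of 13 arrays, namely Tat-/Meth replicates 1 to 4, Tat-/Sal replicates 1, 2 and 4, Tat+/Meth replicates 1, 3 and 4 and Tat+/Sal replicates 1, 2 and 5 (-0.36 to -0.30).

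Beside the members, 42 other genes of the pathway were listed, and all were tested. In Tat-/Meth vs. Tat-/Sal 15 were higher, 7 were lower and 20 did not pass, where 35% of all genes were higher and 15.3% lower. The median difference was 0.15 against 0.14 over all genes, so that the list was close to the background. With median scaling 9 were higher and 1 was lower. The largest rises were those of Adam17, a sheddase that cleaves Ngfr (0.60), Lgi1, a secreted protein that binds the Nogo receptor and Adam22 (0.51), and Wnk1, a kinase that binds Lingo1 (0.48). The largest falls were those of Limk2, the kinase that inactivates cofilin (-0.64), S1pr2, a further receptor for Nogo-A (-0.46), and Cfl1, cofilin itself (-0.38). By group of the list, 9 of 19 genes of RhoA signalling were higher and 3 lower, 3 of 11 ligands were higher and 1 lower, and 3 of 12 receptors and co-receptors were higher and 3 lower.

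In Tat+/Meth vs. Tat-/Meth 7 of the 42 were higher, 16 were lower and 19 did not pass (1 higher and 17 lower with median scaling), where 16% of all genes were higher and 38.5% lower. Limk2 (0.81), Cfl1 (0.47) and S1pr2 (0.45) rose, and Pirb, another receptor for Nogo and Omg (-0.94), Rock1, the kinase downstream of RhoA (-0.65), and Lgi1 (-0.62) fell. The medians were -0.15 for the list and for all genes. In Tat+/Sal vs. Tat-/Sal 1 of the 42 passed, Arhgef12, an exchange factor for RhoA, at -0.25 (limma adjusted p = 0.0386), and none passed in Tat+/Meth against either saline group or between slides. In the interaction 4 were higher and 14 lower, where 12.4% and 23.6% of all genes were, led by Limk2 (0.93), Cfl1 (0.44) and Adam22 (0.35), and by Rock1 (-0.80), Pirb (-0.73) and Ngfr (-0.73).

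Summed markers of 3 cell types, among 10 lists, did not overlap between Tat-/Meth and Tat-/Sal, although none passed after adjustment. Of all single genes, 36.2% did not overlap in that contrast. The 5 neuronal markers, all well above background on every array, summed to 17.75 to 17.93 in Tat-/Meth (log2), against 18.04 to 18.31 in Tat-/Sal, 18.05 to 18.22 in Tat+/Sal and 17.99 to 18.30 in Tat+/Meth. The 4 markers of oligodendrocyte precursors summed to 14.76 to 14.98 in Tat-/Meth and 14.39 to 14.61 in Tat-/Sal, and the 6 astrocyte markers to 15.68 to 15.96 and 15.57 to 15.64. Each of these 3 sums had an exact two-sided permutation p of 0.00794 between the groups, the smallest that 5 against 5 arrays allow, and 0.0529 adjusted over 20 such tests. The 10 oligodendrocyte markers summed to 18.43 to 18.80 in Tat-/Meth and 18.33 to 18.63 in Tat-/Sal, which overlapped (exact permutation p = 0.595). The part of these shifts in the values of the members was not tested. Between Tat+/Sal and Tat-/Sal none of the 10 marker sums had an exact permutation p under 0.05, and the smallest was 0.119 for the striatal list.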

How the data were processed

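Intensity values were used as the authors deposited them: per spot a processed signal, background-subtracted by Agilent Feature Extraction 10.7.3.1 per the file headers, with flags for outliers and for signal well above background. The labels name the dye and no genome build. Each array held 62976 spots, 3671 of them controls, and 55681 probes, of which 27656 matched 1 gene symbol through their RefSeq accession. Spots flagged as outliers were left out (4278 in all), the others were averaged per probe on the log2 scale, and all arrays were brought to a common 75th percentile (the mean over arrays). Genes were represented by their brightest probe and tested where at least 1 group mean was 6 or more. limma 3.58.1 in R 4.3.3 fitted 1 mean per group over all 20 arrays, or 1 per group and slide, with Benjamini-Hochberg adjustment, and was tested on simulated data. Slides come from the array barcodes. Python 3.11.15 with pandas 2.3.3, numpy 2.4.6 and matplotlib 3.10.9 made the tables and plots.

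The members and gene lists were chosen with earlier results of these data known. Other genes named are the 3 pathway genes with the largest change among those that passed per comparison and direction, and the 5 genes most correlated with Lingo1. Summed marker signals were compared with exact two-sided permutation tests. Nothing says that the mice of a group came from separate litters or that same-numbered mice belong together. The number of arrays limits the precision. The alternatives were quantile normalization, median scaling, normexp (offset 50) on the median signals, the authors' value table (log2 after setting 7831 values below 1 to 1), other filters and probe rules, slide as a block or within slides, only the groups compared, the methods' t-test, a change above 2-fold, a block for replicate number, and leaving out single arrays.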

Additional observations from a re-analysis of the deposited data

Results flagged for a closer look

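In 6 of the 44 groups of 5 arrays checked over the 11 probes, 1 array stood far from the other 4, where chance gives about 1 in 20. For Rtn4 these were Tat-/Sal replicate 5 at 13.54 (the others at 14.21 to 14.47), Tat-/Meth replicate 5 at 13.87 (14.61 to 14.74) and Tat+/Sal replicate 3 at 13.93 (14.21 to 14.32), each the lowest of its group. Lingo4 read 9.13 on Tat-/Meth replicate 1 (8.33 to 8.56). Rtn4r read 8.06 on Tat-/Sal replicate 4 (7.36 to 7.56), the array with the highest summed cortical markers. The dimmer probe of Tnfrsf19 read 8.52 on Tat-/Meth replicate 5 (6.87 to 7.24).

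The effect of Meth differed between Tat+ and Tat- mice for Rtn4rl2 (2.36 on the log2 scale), Rtn4 (-0.89), Rtn4rl1 (-0.42), Omg (-0.39) and Lingo3 (-0.35), by the interaction in limma. The value for Lingo1, 2.64, holds the contrast it was chosen from and was not tested. In all 6 the Tat-/Meth arrays and slide 1 cannot be told apart, and the size for Rtn4rl2 is uncertain because its Tat-/Meth arrays read near background.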

How the results depend on the processing

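No value of a passing member, and none of Lingo1, changed sign under any alternative that gave a value. Of 46 values that did not pass, 24 changed sign under an alternative and 5 passed under one with an adjusted p. In Tat+/Sal vs. Tat-/Sal and in the interaction, Lingo1 is not counted. Median scaling and normexp each lowered the number of passing members from 7 to 5 in Tat-/Meth vs. Tat-/Sal, by as many in Tat+/Meth vs. Tat-/Meth, and from 5 to 2 in the interaction. A change above 2-fold left 2, 2 and 1 in these. In Tat+/Sal vs. Tat-/Sal the count of 0 became 1 with slide as a random block (Lingo3), where 2326 of all genes passed. That fit had a correlation within slides of -0.0623. A negative value narrows the error of a contrast between slides, so this is not a correction for slide. With slide as a fixed block 0 members and 0 of all genes passed. The count became 2 with the methods' unadjusted t-test (Lingo2 and Lingo3), where 2828 of all genes passed. That test gave 1 member and 1656 genes in Tat+/Meth vs. Tat+/Sal. Leaving out 1 array gave 0 to 1 in Tat+/Sal vs. Tat-/Sal (1 without Tat-/Sal replicate 3, where Lingo3 passed). In the interaction it gave 3 to 6. The count was 3 without Tat-/Meth replicates 1, 3 or 4, Tat+/Meth replicate 3 or Tat+/Sal replicates 2 or 5. Without both arrays of highest cortical markers, a choice made after seeing the data, 3 passed in the interaction. Median scaling moved the median of all genes from 0.14 to 0.26 in Tat-/Meth vs. Tat-/Sal, from -0.15 to -0.31 in Tat+/Meth vs. Tat-/Meth and from -0.14 to -0.37 in the interaction. Same-numbered arrays of different groups correlated in their deviations from the group means at -0.18 to 0.36 (median 0.04). Differently numbered ones correlated at -0.35 to 0.28 (median -0.01). The ranges overlap, and they cannot show whether same-numbered arrays share more than a number. With the replicate block 7, 7, 0, 0, 0 and 5 members passed in the 5 comparisons and the interaction, as without it, although in the interaction Lingo3 no longer passed and Lingo4 did.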
